A study of Mus musculus with 4 samples.

Results

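Expression of 9 genes that carry signals from immune receptors in blood cells, the tyrosine kinases Fgr, Lyn, Btk, Syk and Fes, the exchange factor Vav1, the adaptor Lcp2, the phospholipase Plcg2 and the phosphatase Inpp5d, was compared between Tet2 KO and WT primary myoblasts. The genes were chosen by symbol for their known role, with earlier results of these data known. All 9 were found among the 24445 genes of the deposited expression table. RNA was sequenced from 4 libraries of C57BL/6 mouse hindlimb satellite cells that had been cultured into MyoD+ myoblasts, 2 from WT mice and 2 from Tet2 KO mice. The Tet2 allele was a constitutive deletion of exon 3, so it was not restricted to muscle. By the study's default, mice were young adult males, and their exact age is not given with these samples. Cells had been sorted as propidium iodide, CD45, CD11b, CD31 and Sca1 negative and CD34 and Integrin α7 positive, and were then grown on collagen for at least 3 days. The deposited table gives 1 level per gene and group, in fragments per kilobase of transcript and 1000000 mapped fragments (FPKM), read here as pooling the libraries of that group. The spread between libraries is therefore unknown, no test was possible, and each value is the authors' group value with no error. Depth per library is also unknown.

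In leukocytes, receptors that bind antibody, microbial sugars or debris couple to short cytoplasmic motifs (ITAMs), which Src family kinases such as Lyn and Fgr phosphorylate. Syk docks on the phosphorylated motif and, with the adaptor SLP-76 encoded by Lcp2, brings Vav1, Btk and phospholipase Cγ2 to the membrane, where they turn on small GTPases such as Rac, calcium release and protein kinase C. SHIP1, the product of Inpp5d, removes a phosphate from the lipid PIP3 and restrains the cascade. Relatives of these proteins, among them Src, Fyn, Vav2, phospholipase Cγ1 and SHIP2, are expressed in most tissues, muscle included.

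All 9 genes were higher in Tet2 KO than in WT myoblasts, with ratios of the group values between 1.66 for Lyn and 4.39 for Fgr and a median of 3.82. Their levels were low, with a summed FPKM of 11.9 in WT and 30.4 in Tet2 KO myoblasts, and 6 of the 9 lay under 1 FPKM in WT. On the scale log2((Tet2 KO FPKM + 1) / (WT FPKM + 1)), which shrinks the ratio of low genes, 5 of the 9 were at least 2-fold higher (Syk, Fes, Vav1, Plcg2 and Inpp5d), 4 did not reach this (Fgr, Lyn, Btk and Lcp2), and 0 were at least 2-fold lower. Of all 11692 genes with a mean of at least 1 FPKM, 2.08% were at least 2-fold higher and 1.21% at least 2-fold lower on this scale, and of all 24445 genes 1.02% were at least 2-fold higher. The mean was under 1 FPKM for Fgr, Btk and Lcp2, so 6 members are among the 11692 genes. By the plain ratio of the group values 8 of the 9, the exception being Lyn, were at least 2-fold higher, beside 9.31% of the 5552 genes whose mean FPKM lay in the members' range of 0.282 to 7.18. The median log2 value was 1.06 over the 9 members and -0.0044 over the 11692 genes.

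**Figure D1:**
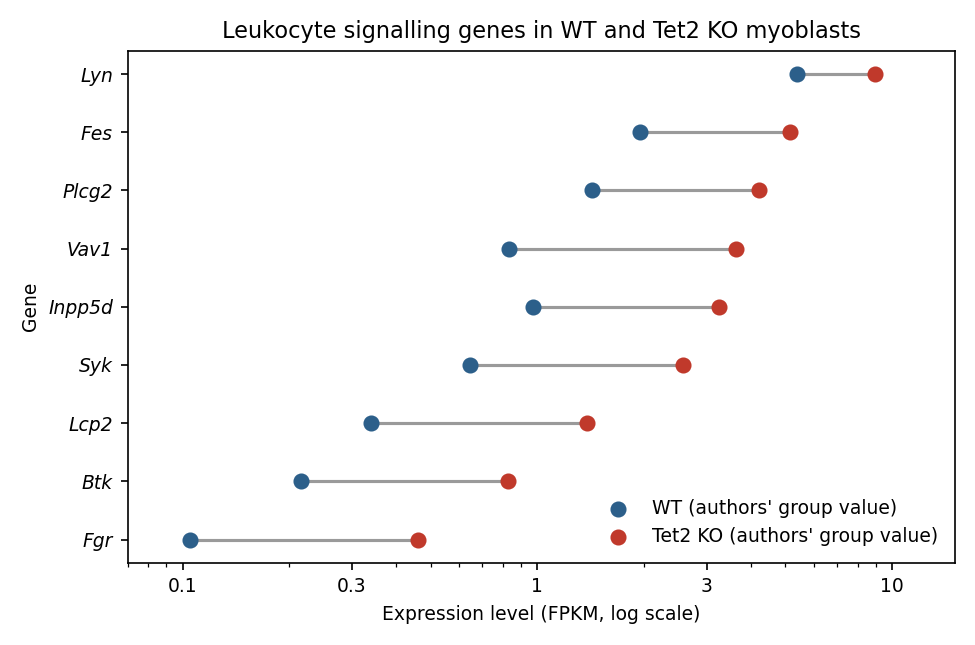
Levels of the 9 genes in WT (blue) and Tet2 KO (red) myoblasts in FPKM on a log axis, each point the authors' group value and with no error available; each line joins the 2 values of a gene. Every red point lies to the right of its blue point, and the gap is narrowest for Lyn (5.40 against 8.96 FPKM).

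Genes that mark leukocytes in general were also higher in Tet2 KO myoblasts. All 7 leukocyte markers, among them Ptprc (CD45), Itgam (CD11b) and Spi1 (the myeloid factor PU.1), were higher. Of these, 6 were at least 2-fold higher on the log2 scale and 7 by plain ratio. Cd52 was the most abundant (7.28 FPKM in WT and 29.6 in Tet2 KO). The summed level of the 7 markers was 27.0 FPKM in WT and 105 FPKM in Tet2 KO, 3.90 times as much. The part of this difference in the result for the 9 genes was not tested, and in bulk RNA a different number of cells of a type and a different amount of RNA per cell cannot be told apart. Macrophage markers summed to 92.2 and 369 FPKM and neutrophil markers to 554 and 1960 FPKM, with 7 of 7 and 8 of 8 genes higher. The most abundant of these were Lyz2, the lysozyme of macrophages and neutrophils (59.5 in WT and 253 in Tet2 KO), and S100a8, a calcium-binding protein of neutrophils (285 and 941). Markers of lymphocytes other than Blk and Lck stayed near 0. Pax5, the factor that fixes B cell identity, was at 0.034 FPKM in WT and 0.053 in Tet2 KO, and 5 B cell markers summed to 1.97 and 1.18 FPKM, most of it Blk. The T or NK cell list summed to 1.02 and 1.26 FPKM, with 5 of its 6 genes under 0.1 FPKM in both groups and Lck the most abundant. Of the 6 mast cell or basophil markers, 3 were higher and 3 lower, and 0 were at least 2-fold higher. By plain ratio 1 was at least 2-fold lower, Mcpt4 (0.359 and 0.0228 FPKM), a gene named after its values were seen. Mcpt8 held nearly all of that list's level (62.9 and 65.9 FPKM). Of the platelet and endothelial genes, Pf4, a chemokine of platelets and macrophages, was at 6.18 and 27.6 FPKM, and the other 5 were not 2-fold apart.

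Myoblast genes were well expressed in both groups. All 6 myoblast markers were expressed, with summed levels of 1153 FPKM in WT and 1028 in Tet2 KO, and each was slightly lower in Tet2 KO. Des, which encodes the muscle intermediate filament desmin, was the most abundant (449 and 372 FPKM). Among the proteins used for sorting, Ptprc was at 1.36 and 5.67 FPKM and Itgam at 2.09 and 10.1, although cells bearing either had been gated out before culture. Pecam1 (CD31) was at 1.63 and 1.48 FPKM and Cd34 at 3.03 and 6.74. Itga7 (Integrin α7) was at 199 and 190 FPKM, and Ly6a, the gene of the negative gate marker Sca1, at 278 and 288. Tet2 itself was at 6.64 FPKM in WT and 5.79 in Tet2 KO (chr3:133126641-133207354, mm9). This value covers the whole gene and so does not check the loss of exon 3.

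The upstream sequence of 8 of the 9 genes, 9 windows of 250 bases before an annotated start (Syk has 2 starts), was taken from RefSeq promoters of GRCm38.p6 and found once each in mm9 by exact match. Lyn had no entry. The windows were read for GAGGAA, a core of the sites bound by ETS factors such as PU.1, on both strands. It was present in 3 of the 9 windows, those of Inpp5d, Vav1 and the downstream start of Syk, beside 8 of 24 windows of the relatives (4 of 13 of those expressed in most tissues). In each of the 3 it lay on the strand of the gene within 30 bases of the start, at -20 to -15 for Inpp5d, -9 to -4 for Syk and -11 to -6 for Vav1, counted from the first transcribed base. Of 32851 promoter windows of all genes, 23.3% held GAGGAA on either strand, and 3.15% held it within the last 30 bases (1.60% on the strand of the gene). The limit of 30 bases was chosen after these positions were seen. A match to these letters is a description and does not show a bound site. The 3 sequences are given 5′ to 3′ on the plus strand of mm9, which is the strand of all 3 genes, with GAGGAA in capitals. They are at chr1:89516637-89516886 for Inpp5d, chr13:52692001-52692250 for Syk, inside the gene, and chr17:57418273-57418522 for Vav1.
Inpp5d: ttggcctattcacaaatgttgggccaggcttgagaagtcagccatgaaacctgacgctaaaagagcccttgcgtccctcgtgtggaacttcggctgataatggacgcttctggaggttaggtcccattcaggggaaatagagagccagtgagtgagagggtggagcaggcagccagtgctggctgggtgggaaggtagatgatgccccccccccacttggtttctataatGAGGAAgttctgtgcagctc
Syk: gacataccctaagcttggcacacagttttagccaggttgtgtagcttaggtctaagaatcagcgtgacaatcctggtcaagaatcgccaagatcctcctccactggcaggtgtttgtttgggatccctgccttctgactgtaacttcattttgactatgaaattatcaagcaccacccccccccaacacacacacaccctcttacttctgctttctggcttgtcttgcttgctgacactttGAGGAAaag
Vav1: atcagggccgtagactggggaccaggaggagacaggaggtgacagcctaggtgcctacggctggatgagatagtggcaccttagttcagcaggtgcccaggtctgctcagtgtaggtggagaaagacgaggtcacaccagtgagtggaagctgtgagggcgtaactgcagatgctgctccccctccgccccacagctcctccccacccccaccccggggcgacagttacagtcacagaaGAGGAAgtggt

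The other motifs searched, also on both strands, were in 0 or 1 of these windows. TGTGGT (Runx factors), TTGCNNAA (C/EBP factors) and TATAAA (the TATA box) were in 0 of the 9, beside 14.0%, 9.56% and 12.4% of all windows. CAGCTG, an E box that MyoD can bind, was in 1 of the 9, that of Lcp2 at -248 to -243, beside 13% of all windows. CpG dinucleotides, the bases at which Tet2 oxidises methylated cytosine, varied widely among the members. Their number ran from 0 for Lcp2 over 3 for Btk, 5 for Inpp5d, 7 for Vav1, 9 for Fgr, 13 for Fes and 17 for Plcg2 to 27 at the upstream start of Syk, whose downstream start had 2. The median was 7 over the members' windows and 6 over all 32851 windows, where the number ran from 0 to 56. The 13 windows of broadly expressed relatives had a median of 21 and a range of 2 to 40. The Lcp2 window ends at 33946927, before the gene's start in the expression data (33947201), so it belongs to a different annotated start. DNA methylation was not analysed here. The windows with the fewest and the most CpG among the members are given 5′ to 3′ on the plus strand, the strand of both genes, with each CG in capitals, at chr11:33946678-33946927 for Lcp2 and chr13:52678556-52678805 for the upstream start of Syk.
Lcp2: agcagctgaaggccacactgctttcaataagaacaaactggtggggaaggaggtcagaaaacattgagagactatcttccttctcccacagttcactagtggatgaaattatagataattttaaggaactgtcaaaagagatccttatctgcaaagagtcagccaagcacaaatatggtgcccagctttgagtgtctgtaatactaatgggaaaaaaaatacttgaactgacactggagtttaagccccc
Syk: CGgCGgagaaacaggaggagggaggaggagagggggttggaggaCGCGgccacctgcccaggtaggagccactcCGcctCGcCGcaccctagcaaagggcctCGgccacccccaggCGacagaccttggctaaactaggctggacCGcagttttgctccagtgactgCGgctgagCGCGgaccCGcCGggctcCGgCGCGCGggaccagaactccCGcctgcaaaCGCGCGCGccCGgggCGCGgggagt

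Fgr and Lyn are Src family kinases, which phosphorylate receptor motifs at the start of the cascade. Positions of the genes are those of the deposited table (mm9), and exon numbers are those of the longest transcript. Fgr (chr4:132530010-132557797, plus strand, 13 exons) is largely a kinase of myeloid cells, and it was the lowest of the 9 genes in both groups, at 0.105 FPKM in WT and 0.460 in Tet2 KO. Its ratio of 4.39 was the highest of the 9, but it rested on levels far below 1 FPKM, and its log2 value with the pseudocount was 0.40. Lyn (chr4:3605268-3718759, plus strand, 13 exons), which both starts and restrains signals in myeloid and B cells, was the most abundant, at 5.40 FPKM in WT and 8.96 in Tet2 KO. Its ratio of 1.66 and log2 value of 0.64 left it under 2-fold on both scales. In FPKM, however, Lyn had the largest difference of the 9, 3.56 FPKM. It made up 45.4% of the members' summed level in WT and 29.4% in Tet2 KO, and without it the sum of the other 8 was 6.49 and 21.5 FPKM, a ratio of 3.31 in place of 2.56. Genes annotated on the opposite strand overlap the spans of Lyn, Btk and Lcp2. Whether any exons overlap was not examined. The library kit does not keep strand, so reads could not be told apart where exons do overlap.

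Syk (chr13:52678806-52744161, plus strand, 14 exons), the kinase that docks on phosphorylated ITAMs, was at 0.646 FPKM in WT and 2.57 in Tet2 KO, a ratio of 3.98 and a log2 value of 1.12. Btk (chrX:131076880-131117679, minus strand, 19 exons), the Tec family kinase that activates phospholipase Cγ2, was at 0.216 and 0.825 FPKM, a ratio of 3.82 and a log2 value of 0.59. Fes (chr7:87522644-87532832, minus strand, 19 exons), a kinase of myeloid cells outside the Src and Tec families, was the second most abundant member, at 1.95 and 5.16 FPKM, a ratio of 2.64 and a log2 value of 1.06. Syk and Btk thus differed by almost the same ratio, but the pseudocount shrinks the ratio of the lower gene more, and Btk missed 2-fold on that scale. Fes had the second lowest ratio and, at 3.21 FPKM, the second largest difference.

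Vav1 (chr17:57418523-57468659, plus strand, 28 exons), the exchange factor that loads Rac and related small GTPases with GTP in blood cells, was at 0.833 FPKM in WT and 3.64 in Tet2 KO. Its log2 value of 1.34 was the highest of the 9, with a ratio of 4.36, and it ranked 140 of the 11692 genes on the log2 scale. Lcp2 (chr11:33947201-33992280, plus strand, 21 exons), the adaptor SLP-76 that holds Vav1 and the phospholipase together, was at 0.340 and 1.38 FPKM, a ratio of 4.07 and a log2 value of 0.83. Its log2 value was 1.11, past 2-fold, when both groups were rescaled to a sum of 1000000 (TPM) before the pseudocount was added. The sums before rescaling were almost equal (566910 FPKM in WT and 565529 in Tet2 KO). The rescaling thus acts like a smaller pseudocount and hardly changes the ratio between the groups. Plcg2 (chr8:120022175-120159042, plus strand, 33 exons), which cleaves the lipid PIP2 into IP3 and diacylglycerol, was at 1.43 and 4.20 FPKM, a ratio of 2.94 and a log2 value of 1.10. Inpp5d (chr1:89516887-89617085, plus strand, 27 exons), the inhibitory member of the set, was at 0.971 and 3.25 FPKM, a ratio of 3.34 and a log2 value of 1.11. The brake on the cascade was thus higher by a factor within the range of the activating members.

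The order of the levels was nearly the same in both groups. From the highest, it was Lyn, Fes, Plcg2, Vav1, Inpp5d, Syk, Lcp2, Btk and Fgr in Tet2 KO myoblasts, and WT differed from this in that Inpp5d stood above Vav1. With 1 value a group, neighbours in this order cannot be compared with a spread. Per unit of Ptprc, the gene of the pan-leukocyte phosphatase CD45, the level in WT and Tet2 KO was 0.476 and 0.454 for Syk, 0.614 and 0.642 for Vav1, 0.250 and 0.244 for Lcp2, 0.159 and 0.146 for Btk and 0.0772 and 0.0811 for Fgr. For these 5 genes the quotient was nearly the same in both groups. This closeness depends on the divisor. The ratio of Ptprc itself was 4.18, and those of the leukocyte markers ran from 2.15 for Laptm5 to 4.81 for Itgam. Inpp5d (0.716 and 0.573), Plcg2 (1.05 and 0.742) and Fes (1.44 and 0.911) were lower per unit of Ptprc in Tet2 KO than in WT. Lyn departed most, at 3.98 in WT and 1.58 in Tet2 KO. Divided by the summed leukocyte markers, the ratio between the groups was 1.13 for Fgr, 1.12 for Vav1, 1.04 for Lcp2, 1.02 for Syk, 0.981 for Btk, 0.858 for Inpp5d, 0.756 for Plcg2, 0.679 for Fes and 0.426 for Lyn. These quotients share their libraries and have no error.

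**Figure D2:**
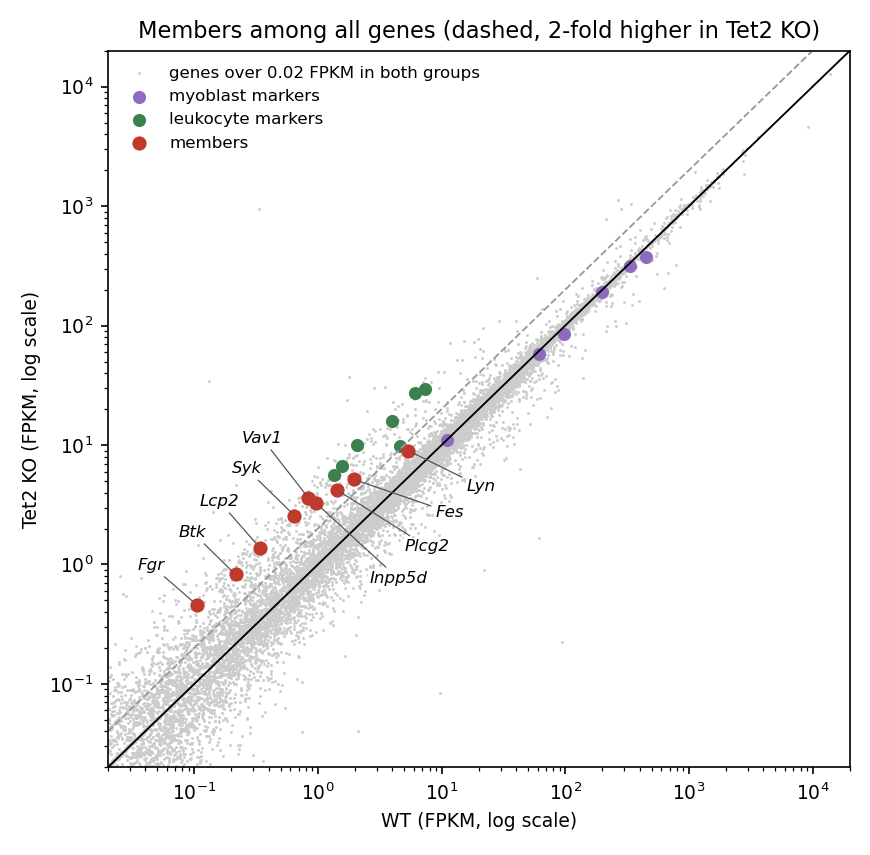
Level of each gene in WT (x axis) and Tet2 KO myoblasts (y axis), in FPKM on log axes, with genes over 0.02 FPKM in both groups in grey, the 9 members in red, 7 leukocyte markers in green and 6 myoblast markers in purple; the solid line marks equal levels and the dashed line 2-fold higher in Tet2 KO. The members other than Lyn lie above the dashed line, as the 7 leukocyte markers do, and the myoblast markers lie near the solid line.

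Each of the 9 genes has close relatives, and those expressed in most tissues gave a comparison within protein families. These were the 8 genes Src, Fyn, Yes1, Fer, Vav2, Vav3, Plcg1 and Inppl1. Of the 8, 0 were at least 2-fold higher and 0 at least 2-fold lower on the log2 scale, beside 5 of 9 members higher. Their ratio ran from 0.558 to 1.07, with 3 higher, 5 lower and a median log2 value of -0.07, against 1.06 for the members. The members share little sequence with other genes that could split reads between them: 0% of the 50-base stretches in the longest transcript of 8 members, and 0.417% of those of Lcp2, occur in another gene's coding transcripts.

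**Figure D3:**
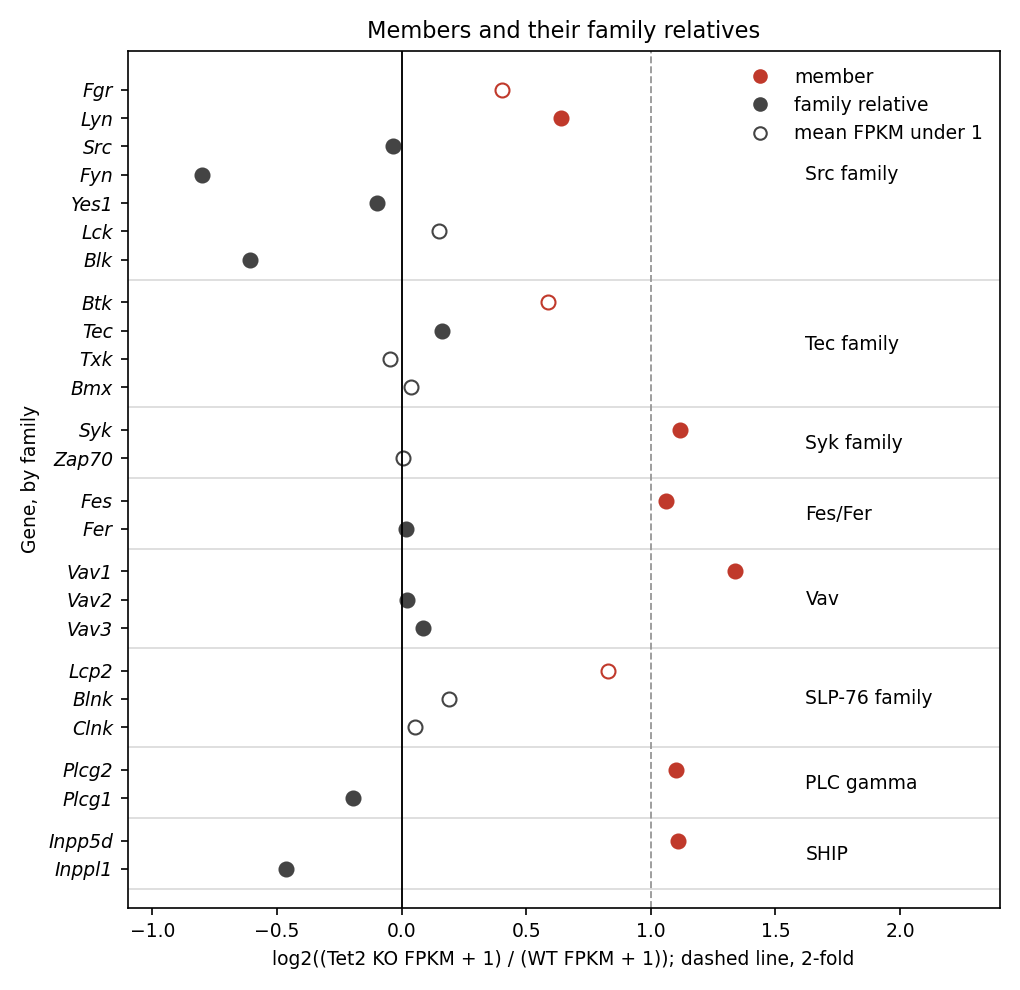
log2 ratio of Tet2 KO to WT (pseudocount of 1 FPKM, authors' group values, no error available) for the 9 members in red and 16 relatives in dark grey, grouped by family; open circles mark genes with a mean under 1 FPKM and the dashed line 2-fold. The members lie between 0.40 and 1.34, and the 8 relatives expressed in most tissues between -0.80 for Fyn and 0.09 for Vav3.

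Within the Src family, Src (10.6 FPKM in WT and 10.3 in Tet2 KO) and Yes1 (17.5 and 16.3) were nearly level, while Fyn was lower in Tet2 KO (27.7 and 15.5, log2 value -0.80). Fyn was the lowest of the 8 broadly expressed relatives on this scale. Blk, a kinase best known in B cells, was also lower (1.74 and 0.800, log2 value -0.61), and Lck, a kinase best known in T cells, was at 0.880 and 1.09 FPKM. Fgr and Lyn together made up 8.97% of the summed FPKM of Fgr, Lyn, Src, Fyn and Yes1 in WT and 18.3% in Tet2 KO, while that sum was 61.3 and 51.4 FPKM. In the Tec family, Tec was at 1.45 and 1.74 FPKM, Txk and Bmx lay under 0.1 FPKM in both groups, and Btk took 13% of the sum of Btk and Tec in WT and 32.2% in Tet2 KO. Zap70, the T cell relative of Syk, was at 0.086 and 0.089 FPKM, so that Syk was 88.3% and 96.7% of the pair.

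Fer, the widely expressed relative of Fes, was at 18.0 FPKM in WT and 18.3 in Tet2 KO, and the share of Fes in the pair was 9.76% and 22.0%. Vav2 (7.84 and 7.98 FPKM) and Vav3 (6.46 and 6.93) hardly differed, and the share of Vav1 among the 3 was 5.50% and 19.6%. Vav2 and Vav3 each stayed above Vav1 in both groups. Plcg1, at 21.9 and 19.0 FPKM, stayed far above Plcg2, whose share was 6.13% and 18.1%. Inppl1, which encodes SHIP2, was the most abundant relative, at 80.0 and 57.7 FPKM (log2 value -0.46), and Inpp5d held 1.20% and 5.32% of the pair. The relatives of Lcp2 were low, Blnk at 0.761 and 1.01 FPKM and Clnk at 0.012 and 0.052, and Lcp2 made up 30.5% and 56.6% of its family. Beside these broadly expressed relatives, Fgr with Lyn, Fes, Vav1, Plcg2 and Inpp5d thus remained the smaller part of the summed level in Tet2 KO myoblasts.

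**Figure D4:**
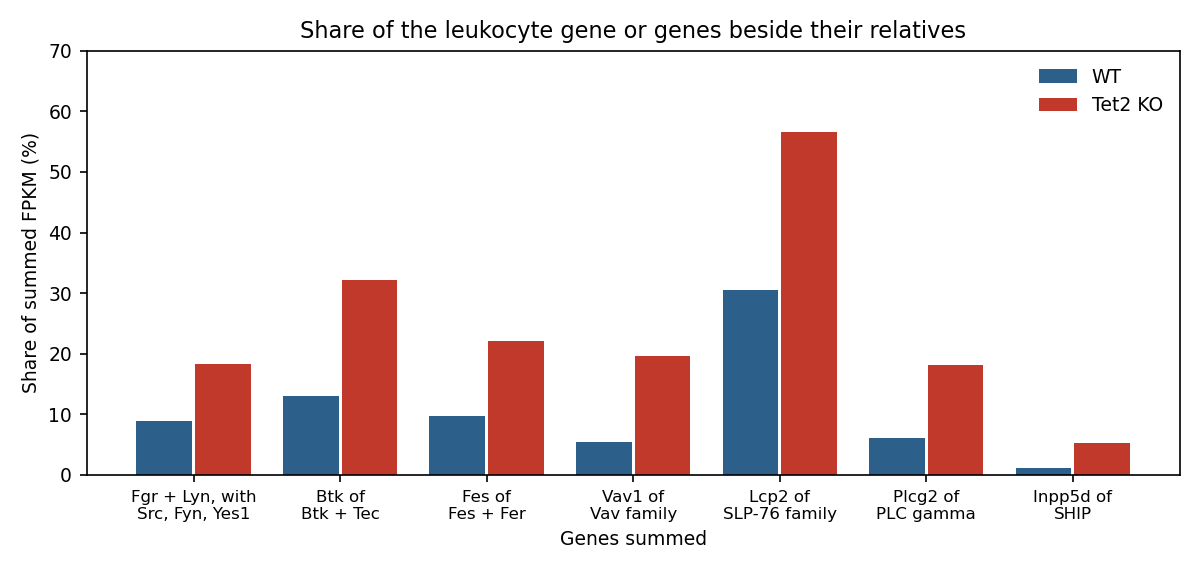
Share of the summed FPKM, in percent, taken by the blood cell gene or genes named first under the bars beside the relatives named in the text, in WT (blue) and Tet2 KO (red) myoblasts; the values come from the authors' group values and have no error. The share is higher in Tet2 KO in all 7 sums drawn, from 5.50% to 19.6% for Vav1 and from 1.20% to 5.32% for Inpp5d.

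Upstream of the 9 genes, 10 of 15 ITAM receptors and adaptors were at least 2-fold higher in Tet2 KO on the log2 scale and 0 at least 2-fold lower, with a median of 1.51, and 13 were at least 2-fold higher by plain ratio. The adaptors Tyrobp (DAP12) and Fcer1g, which carry the ITAMs for many myeloid receptors, were at 13.4 FPKM in WT and 51.1 in Tet2 KO (log2 value 1.85) and at 4.91 and 16.7 (1.58). Clec7a, the receptor Dectin-1 for fungal β-glucan, had the highest value of the list with a mean of at least 1 FPKM (1.45 and 10.2, log2 value 2.19). Sirpa, an inhibitory receptor that is not restricted to blood cells, had the lowest (20.4 and 25.5, log2 value 0.31).

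Partners beside and below the 9 genes were less uniform. Over all genes with a mean of at least 1 FPKM, 2.08% were at least 2-fold higher on the log2 scale. By plain ratio the share was 9.31% over genes in the members' range, and some genes of these lists lie outside that range. Of 20 cytoplasmic adaptors, 2 (Pik3ap1 and Sla) were at least 2-fold higher on the log2 scale, with a median of 0.17. By plain ratio 5 were, Pik3ap1 (3.84), Sla (3.81), Fyb (3.52), Dok2 (3.28) and Dok3 (2.15), and in WT all 5 lay under 1 FPKM. Pik3ap1 (BCAP), which links receptors to PI3K, had the highest value (0.834 and 3.20 FPKM, log2 value 1.20), Nck1, expressed in most tissues, the lowest (log2 value -0.24), and Grap2 was at 0.040 and 0.065 FPKM. Of 11 negative regulators, 2 were at least 2-fold higher on the log2 scale, the phosphatases Ptpn18 (0.833 and 3.23, log2 value 1.21) and Ptpn6, which encodes SHP-1 of blood cells (5.60 and 12.9, log2 value 1.08). Csk, the kinase that holds Src family members inactive, was at 22.9 and 22.2 FPKM, and Inpp4b, a lipid phosphatase, had the lowest value of the list (7.02 and 3.98, log2 value -0.69). The median over the 11 was 0.08. By plain ratio Ptpn22 (0.336 and 1.03 FPKM, ratio 3.08) joined Ptpn18 and Ptpn6 to make 3 at least 2-fold higher.

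None of the 8 PI3K subunits and none of the 17 effectors of diacylglycerol and calcium was at least 2-fold apart on the log2 scale, and their medians were 0.30 and 0.12. By plain ratio, 3 of the 8 subunits were at least 2-fold higher, Pik3cg (0.150 and 0.769 FPKM, ratio 5.14), Pik3r6 (ratio 3.15) and Pik3r5 (ratio 2.75), which encode the PI3Kγ enzyme of leukocytes and its regulatory subunits, all under 1 FPKM in both groups. Of the 17 effectors, 3 were at least 2-fold higher by plain ratio, Rasgrp2 (3.41), Card9 (3.16) and Rasgrp4 (2.90), and Prkcq was lower (0.381). Rasgrp2 was at 0.287 FPKM in WT and 0.976 in Tet2 KO, and Rasgrp4 at 0.071 and 0.206. Genes named here for their plain ratio were chosen after their values were seen. Pik3cd, the catalytic subunit most used by leukocytes, had the highest value of the PI3K list among genes with a mean of at least 1 FPKM (1.85 and 3.26, log2 value 0.58), and Pik3ca, used in most tissues, the lowest (log2 value -0.03). Card9, an adaptor downstream of Syk in myeloid cells, had the highest among the effectors (0.770 and 2.43, log2 value 0.96), and Itpr3, an IP3 receptor, the lowest (log2 value -0.03), both among genes with a mean of at least 1 FPKM. Of 18 small GTPases and actin regulators, 5 were at least 2-fold higher on the log2 scale and 6 by plain ratio, with a median log2 value of 0.14. Rac2, the blood cell Rac that Vav1 activates, was at 1.20 and 5.11 FPKM (log2 value 1.47). Coro1a, an actin-binding protein that is also among the leukocyte markers, had the highest value (6.12 and 27.0, log2 value 1.98), and Nckap1, a subunit of the WAVE complex, the lowest (log2 value -0.16). In these 5 lists 0 genes were at least 2-fold lower on the log2 scale.

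**Figure D5:**
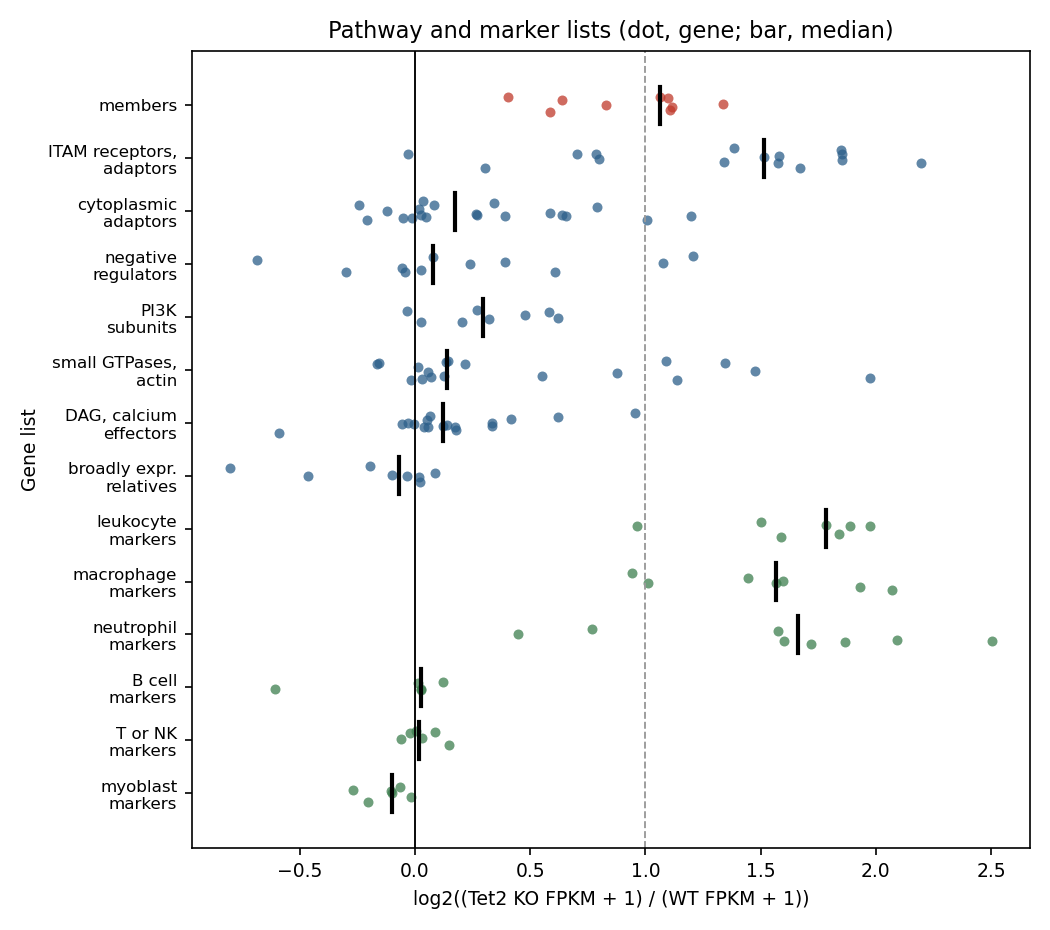
log2 ratio of Tet2 KO to WT (pseudocount of 1 FPKM, authors' group values) for every gene of each list, with a black bar at the list's median over all its genes and a dashed line at 2-fold; members in red, pathway lists in blue, cell type markers in green. Medians of the members, the ITAM list and the leukocyte, macrophage and neutrophil markers lie past the dashed line, while those of the other pathway lists, the lymphocyte markers and the myoblast markers lie between -0.10 and 0.30.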

How the data were processed

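RNA-seq libraries of 2 WT and 2 Tet2 KO primary myoblast samples had been prepared with a TruSeq v2 kit, which does not keep strand. Per the labels and the submitters' processing notes, the authors aligned reads to mm9 with TopHat2 (version 2.0.13) and computed gene levels with Cuffdiff (version 2.2.1). The gene annotation is not given in the sources used here. The deposited table holds 1 FPKM value a gene and group, and FPKM normalises for transcript length and depth. It also holds the authors' own fold changes, statistics and p-values, which were not used. Depth per library is unknown, and no interval could be given. Whether the 2 libraries of a group came from separate mice is not stated.

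Ratios were taken on the log2(FPKM + 1) scale, that is with a pseudocount of 1, and as plain ratios. Python 3.11.15 with pandas 2.3.3 and numpy 2.4.6 was used. The ratio and call functions were tested on simulated data, with changes planted only in genes with a mean of at least 5 FPKM. That test does not cover calls at the lower levels of most members. No filter was applied to members or lists; shares over all genes used a mean of at least 1 FPKM. A gene was called at 2-fold. The text names all members, relatives in their protein families, the highest and lowest gene of each pathway list with a mean of at least 1 FPKM, 7 further pathway genes chosen by role, the sort markers, the most abundant gene of each marker list, and Tet2; Ptprc, Itgam, Spi1 and Pax5 in the marker lists were named as defining markers. A few genes of these lists are not reported here. Members and lists were chosen with earlier results of these data known. Exons and overlaps came from GENCODE vM1 on mm9, where Syk is named Sykb, and promoter windows from RefSeq (GRCm38.p6). Alternatives were other pseudocounts, filters, thresholds and scalings.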

Additional observations from a re-analysis of the deposited data

How the results depend on the processing

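All 9 members stayed higher in Tet2 KO under each pseudocount and scaling tried, but this is no check of the direction. A pseudocount that is the same in both groups cannot change it. The group sums of FPKM are almost equal and the median of all genes lies near 0, so the scalings could hardly change it either. The count of members at least 2-fold higher was 5 as reported, 8 with a pseudocount of 0.1, 8 with none and 8 at 1.5-fold. It was 6 with TPM scaling, which acts like a smaller pseudocount and added Lcp2. It was 0 at 3-fold, and 0 with a filter on a mean of at least 5 FPKM, which leaves Lyn as the 1 member and its log2 value of 0.64 as the median, in place of 1.06. Without a pseudocount, Fgr, Btk and Lcp2 passed 2-fold and 0 members fell below it. Centring on the median and TPM scaling shifted the median of all genes by 0.0044 and 0.0034 on the log2 scale. Of the 11692 genes with a mean of at least 1 FPKM, 243 (2.08%) were at least 2-fold higher as reported. This count was 334 with a pseudocount of 0.1, 341 with none, 293 with TPM scaling, 435 at 1.5-fold and 81 at 3-fold. With the filter at 5 FPKM it was 109. By plain ratio it was 1275 among genes above 0 in both groups and 517 (9.31%) of the 5552 in the members' range. These 2 alternatives were chosen after seeing the data. The numbers of genes behind 109 and 1275 are not given here. The median of the 8 broadly expressed relatives stayed between -0.07 and -0.06, and that of the negative regulators was 0.05 over genes with a mean of at least 1 FPKM and -0.0091 at a mean of at least 5 FPKM. The cause was not tested. No paired analysis was possible because the table holds 1 value a group and no value per library, and for the same reason leaving out each replicate was not run. Levels under 1 FPKM, as for Fgr and Btk, rest on few fragments, whose number is not given.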

Other observations

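A few genes of the lists, picked after their values were seen, went against the direction of the members. Prkcq, which encodes protein kinase Cθ of T cells and skeletal muscle, was at 1.18 FPKM in WT and 0.452 in Tet2 KO, and Blk at 1.74 and 0.800. Fyn (-0.80) and Inpp4b (-0.69) had the lowest log2 values among the broadly expressed relatives and the negative regulators. Mcpt8, a protease of basophils, was at 62.9 and 65.9 FPKM, while the basophil and mast cell genes Fcer1a (0.190 and 0.130) and Ms4a2 (0.0656 and 0.0992) were close to 0 in both groups. Pf4 was at 6.18 and 27.6 FPKM, while the platelet genes Gp9 (0.0564 and 0.0887) and Itga2b (0.332 and 0.374) stayed under 1 FPKM.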
